A study of Mus musculus with 48 samples.

Results

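Ighj1, Ighj2, Ighj3 and Ighj4, called JH1 to JH4 here, are the 4 joining segments of Igh, the locus that encodes the immunoglobulin heavy chain in the mouse. They are 4 of the 137 annotated V, D and J genes of the locus in the mm9 genome, beside 21 D segments and 112 VH genes. A junction was given to a JH gene when its bait end lay within 100 bp of that gene's annotated span, and in each of the 25 libraries 100.0% of bait ends could be placed in this way. The use of each JH gene was then counted separately for junctions whose prey end lay in the D region and for those whose prey end lay in the VH region.

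Each developing B cell assembles a heavy chain exon by cutting and joining gene segments with the RAG endonuclease. RAG binds a JH segment first, at the recombination signal sequence (RSS) beside it, then takes up a D segment. The DJH joint formed in this way can later be joined to a VH gene, which keeps the JH gene of the first step. An RSS holds a conserved heptamer next to the coding end and a nonamer beyond a spacer. A D segment joins a JH gene by deleting the DNA between them, and a chromosome that has joined to a distal JH gene has lost the JH genes in between, so JH use also records which later joints remain possible. Joints are trimmed at both ends and, where terminal deoxynucleotidyl transferase (TdT) is present, filled with untemplated bases.

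The libraries were made by linear-amplification-mediated, high-throughput, genome-wide translocation sequencing (LAM-HTGTS), in which DNA is copied outward from a bait site and the sequence joined to it, the prey, is mapped. Pro-B cells of bone marrow (BM) and pro-B lines transformed by the v-Abl oncogene were studied for how RAG scans the locus along its loops and how the locus contracts. The WT BM group (3 libraries) and the INV BM group (4 libraries, with an Igh inversion) came from C57BL/6 mice, were purified on anti-B220 beads and were cultured with the cytokines IL-7 (10 ng/mL) and SCF (2 ng/mL). A further WT BM sample was not used here.

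The v-Abl groups had 3 libraries each and all carried OsTIR1, which targets degron-tagged proteins for destruction when auxin (IAA) is added, and an Emu-Bcl2 transgene, which keeps arrested cells alive. The line labelled Primary carried nothing further. The Wapl-degron line carried a degron on Wapl, the factor that releases cohesin from DNA, and a derivative had a single Igh allele. A single-Igh group labelled INV was also present, whose genotype field lists no inversion. Untreated lines received 3 uM STI-571 for 4 days, which inhibits the Abl kinase and arrests the cells in G1. Lines given IAA/Dox received STI-571 alone for 1 day, then together with 150 uM IAA and doxycycline (labelled 2 mg/mL) for 3 days. The INV group of the single-Igh line was given IAA/Dox. The labels call all 8 groups RAG1 deficient, and how RAG was supplied and where the inversions end is not given in the sources used here. Each v-Abl group comes from a transformed line, and nothing in the labels says that its libraries came from separate cultures or animals, so the p-values measure the spread between these samples, which may be technical.

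The 4 JH segments lie on the minus strand of chr12 (mm9). The annotated spans are 114667992-114668044 for Ighj1 (ENSMUSG00000076621.1), 114667725-114667778 for Ighj2 (ENSMUSG00000076620.1), 114667296-114667343 for Ighj3 (ENSMUSG00000076619.1) and 114666725-114666778 for Ighj4 (ENSMUSG00000076618.1). The spans of Ighj1, Ighj3 and Ighj4 are each a J segment exon. That of Ighj2 covers mostly the signal side of its J segment, which runs from 114667679 to 114667726. The annotated Ighj2 end lay 52 bp beyond the coding end found beside its RSS, and the coding end was used for distances. JH1 lies 318 bp from JH2, JH2 lies 383 bp from JH3 and JH3 lies 565 bp from JH4. The nearest D segment, Ighd4-1, lies 695 bp from JH1, 1013 bp from JH2, 1396 bp from JH3 and 1961 bp from JH4.

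The signal and the first 25 coding bases of each JH gene are shown because the cut that starts every junction is made between them. Sequences were read from the mm9 genome, minus strand, 5′ to 3′, with the nonamer and then the heptamer in capitals around a spacer of 23 bases, or 22 where the nonamer then matched better:
JH1 (chr12:114668020-114668082): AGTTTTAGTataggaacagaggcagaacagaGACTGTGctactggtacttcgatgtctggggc
JH2 (chr12:114667702-114667765): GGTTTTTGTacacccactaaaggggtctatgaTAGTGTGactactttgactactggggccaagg
JH3 (chr12:114667319-114667382): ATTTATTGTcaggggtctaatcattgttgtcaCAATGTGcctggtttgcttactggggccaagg
JH4 (chr12:114666754-114666816): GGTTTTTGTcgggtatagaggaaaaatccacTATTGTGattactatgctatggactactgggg

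Set against the consensus heptamer CACTGTG, JH1 and JH3 matched at 6 of 7 bases and JH2 and JH4 at 5 of 7. Set against the consensus nonamer GGTTTTTGT, JH2 and JH4 matched at 9 of 9 bases, JH1 at 7 of 9 and JH3 at 6 of 9. With a spacer held at 23 bases JH4 would match at 6 and JH1 at 5. Aligned from the 3′ end, the coding segments were 62.5% identical between JH3 and JH4, the lowest pair, and 75.0% identical between JH1 and JH2 and between JH2 and JH4. The longest stretch that any pair shared was 16 bases, between JH1 and JH4. Each JH gene's junctions therefore carry coding bases that tell it apart from the others.

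The D segments that the JH comparisons turn on are shown at their JH-proximal end, coding bases first, with the heptamer and then the nonamer in capitals around a spacer of 12 bases (mm9, minus strand, 5′ to 3′):
Ighd4-1 (chr12:114668711-114668749): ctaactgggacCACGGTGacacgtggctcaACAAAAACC
Ighd3-2 (chr12:114686397-114686440): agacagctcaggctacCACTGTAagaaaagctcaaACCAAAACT
Ighd2-8 (chr12:114689034-114689078): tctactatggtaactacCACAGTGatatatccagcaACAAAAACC
Ighd2-4 (chr12:114708877-114708921): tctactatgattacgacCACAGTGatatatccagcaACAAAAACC
Ighd2-3 (chr12:114713583-114713627): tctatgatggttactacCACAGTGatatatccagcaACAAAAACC
Ighd6-1 (chr12:114718326-114718370): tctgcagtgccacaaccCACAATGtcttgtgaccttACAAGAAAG
Ighd1-1 (chr12:114720353-114720397): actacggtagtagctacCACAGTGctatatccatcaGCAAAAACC

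Ighd1-1 and Ighd3-2 both end in GCTAC, and Ighd2-3 and Ighd2-8 both end in ACTAC. JH1 begins with ctact and JH2 with actac. The ctac that Ighd1-1 and JH1 share recurs in the joints described further on. With lines pooled over libraries of unequal depth, Ighd1-1 held 59.6% of all D junctions and Ighd4-1 held 15.7%. Single libraries differed widely. Over 18 libraries that held all 4 JH genes, Ighd1-1 made up 17.8% to 72.4% of the D junctions of JH2, and Ighd4-1 6.63% to 70.3%. The shares that follow are pooled in the same way. Ighd2-3, Ighd2-4 and Ighd2-8 followed with 8.82%, 5.31% and 4.61%. Ighd3-2 and Ighd6-1 were chosen after their values were seen. Among VH genes Ighv5-2 held 34.2% of all VH junctions, and the next, Ighv2-2, held 3.80%.

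The libraries held 61194 to 1016401 junctions, of which 58419 to 841534 had a D prey and 144 to 182742 a VH prey. A JH share was the percent of a library's D or VH junctions whose bait was that gene. The 95% Wilson intervals of these shares reached at most 0.4 percentage points either side for D and 2.86 for VH. The reads carry no molecular identifiers, so the intervals cover counting error only. Read names placed the libraries in 9 sequencing runs. Bait reads of each JH gene began at a few positions of its own around its splice end, so the share of 1 JH gene against another also carries how well each bait site was recovered, which was not tested. In INV BM replicate 3 the most common start held 98.2% to 98.7% of the bait reads of each JH gene. In the other BM libraries it held 49.2% to 71.8%. Single-Igh IAA/Dox replicates 1 and 3 also had 98.3% and 96.9% of their JH1 bait reads at 1 start, and 98.1% of their JH4 bait reads. Whether this bears on the shares was not tested. WT BM replicates 2 and 3 had 66.2% and 88.0% of their junctions with a prey inside the JH region itself, and these enter neither share. In Wapl-degron IAA/Dox replicate 2, 28.4% of lines were surplus copies of a read name.

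Of the 25 libraries, all labelled as JH1 to JH4 bait, 7 lacked at least 1 JH gene, taken as under 1% of all junctions. Primary replicate 1 held JH4 and JH2 baits alone, with JH4 at 92.3% of D junctions and JH2 at 7.69%. Wapl-degron untreated replicate 1 held no JH2 bait. Single-Igh untreated replicate 1 held JH2 bait alone, and single-Igh INV replicate 1 held JH1 bait alone. Single-Igh IAA/Dox replicates 1 and 3 were 82.9% and 81.5% JH1 among D junctions, with JH3 at 0.422% and 0.888%. The JH counts of these 2 libraries differed by less than the sampling noise among VH junctions (chi-square p = 0.991) but not among D junctions (p = 6.18e-59), and they were counted as 2 samples. Single-Igh INV replicate 3 held JH3 at 0.297% of D junctions. In Primary replicate 1 a count of 0 for JH1 among 212250 D junctions allows a share of up to 0.00141%.

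The other 18 libraries, 7 from BM and 11 from lines, held all 4 JH genes. Differences in JH use that rest on the 7 libraries above cannot be told apart from which bait sites a library covered. The main comparisons within libraries are given with and without them, and those between groups in part.

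**Figure D1:**
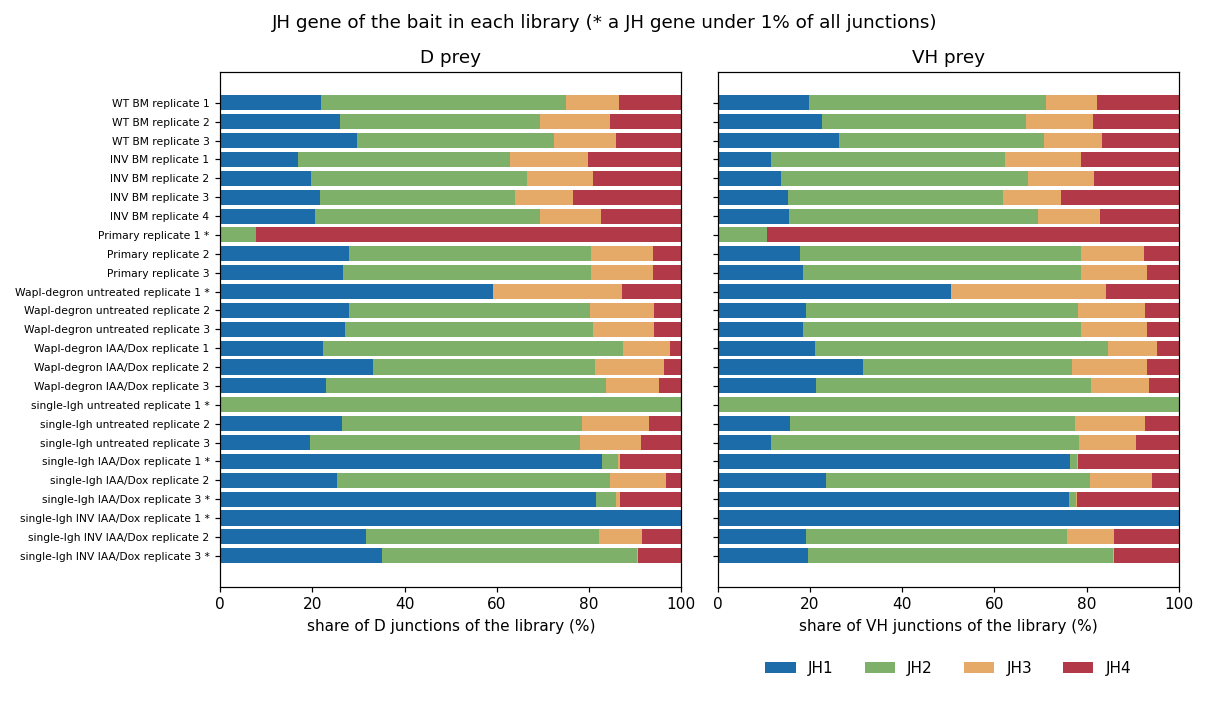
Stacked bars of the percent of D junctions (left panel) and VH junctions (right panel) held by JH1, JH2, JH3 and JH4 in each of the 25 libraries, with an asterisk on libraries in which at least 1 JH gene held under 1% of junctions. JH2 took the largest share in all 18 libraries with 4 JH genes, and single bars filled by 1 gene are the libraries that lacked the others.

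JH2 was the most used segment in every library that held all 4 JH genes, for D and for VH prey. In WT BM JH1 took 21.9%, 26.0% and 29.7% of D junctions in replicates 1 to 3 and JH2 took 53.1%, 43.3% and 42.6%. JH3 took 11.5%, 15.2% and 13.4%, and JH4 took 13.6%, 15.4% and 14.2%. JH2 thus stood clear of JH1 in each library, JH1 stood clear of JH3 and JH4, and the ranges of JH3 and JH4 overlapped.

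In INV BM JH1 took 16.9%, 19.7%, 21.6% and 20.6% of D junctions in replicates 1 to 4. JH2 took 46.0%, 46.9%, 42.4% and 48.7%, inside the WT BM range but for replicate 3. JH3 took 16.9%, 14.2%, 12.5% and 13.4%, and JH4 took 20.2%, 19.2%, 23.5% and 17.3%. The ranges of JH1 and JH4 overlapped in this group, which was not so in WT BM.

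Between the BM groups, JH1 held 25.9% ± 3.94 (SD, n = 3) of D junctions in WT BM and 19.7% ± 2.01 (n = 4) in INV BM. The difference, INV minus WT, was -6.17 points, and the groups did not overlap (exact two-sided permutation p = 0.0571, the smallest that 3 against 4 allows, 0.5 after Benjamini-Hochberg adjustment over 40 tests). JH4 held 14.4% ± 0.957 in WT BM and 20.1% ± 2.59 in INV BM. This difference of 5.66 points had the same exact p and adjusted p, again with no overlap. JH2 differed by -0.35 points and JH3 by 0.86 points, both inside the spread between libraries.

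JH2 also led among VH junctions in BM, followed by JH1 in WT BM and by JH4 in INV BM. In WT BM JH1 took 19.8%, 22.7% and 26.2% of VH junctions, JH2 took 51.2%, 44.2% and 44.6%, JH3 took 11.3%, 14.5% and 12.5% and JH4 took 17.7%, 18.6% and 16.7%. In INV BM JH1 took 11.6%, 13.7%, 15.2% and 15.4%, all below the lowest WT BM library. JH2 took 50.8%, 53.6%, 46.6% and 54.1% there, JH3 took 16.5%, 14.2%, 12.7% and 13.4%, and JH4 took 21.1%, 18.5%, 25.5% and 17.1%, above JH1 in 4 of 4 libraries. The JH1 difference, INV minus WT, was -8.92 points (22.9% ± 3.18, n = 3, against 14.0% ± 1.76, n = 4, exact permutation p = 0.0571, adjusted 0.5). JH2 was 4.57 points higher in INV BM, with overlapping libraries (exact permutation p = 0.171). Replicates 2 and 3 of WT BM and 2 to 4 of INV BM came from the same sequencing run, and replicate 1 of both from another. JH1 was lower in INV BM in both runs.

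In the D junctions of the 11 line libraries with all 4 JH genes JH2 was followed by JH1, then JH3, then JH4, whereas JH4 was above JH3 among D junctions in all 7 BM libraries. In the 2 Primary libraries with 4 JH genes JH1 took 28.0% and 26.7% of D junctions, JH2 52.4% and 53.6%, JH3 13.5% in both and JH4 6.11% and 6.18%. The 2 such libraries of the untreated Wapl-degron line read 27.8% and 27.1% for JH1, 52.4% and 53.8% for JH2, 13.9% and 13.3% for JH3 and 5.93% and 5.82% for JH4. These 4 libraries of 2 lines lay closer together than the 3 of WT BM.

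With IAA/Dox, the 3 libraries of the Wapl-degron line spread further. JH1 took 22.3%, 33.1% and 22.9% of D junctions, JH2 65.1%, 48.3% and 60.7%, JH3 10.2%, 14.9% and 11.5% and JH4 2.47%, 3.79% and 4.82%. JH4 lay below both untreated libraries with 4 JH genes in all 3, while JH1, JH2 and JH3 of the treated libraries lay on both sides of them. Replicate 2, which was high for JH1 and JH3, is the library with surplus copies, and it shares a sequencing run with the untreated libraries.

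The single-Igh line gave JH1 shares of 26.5% and 19.5% of D junctions in its 2 untreated libraries with 4 JH genes, with JH4 at 7.07% and 8.65%. The 1 such library with IAA/Dox gave 25.4% for JH1, 59.1% for JH2, 12.1% for JH3 and 3.42% for JH4. The 1 such library of the INV group gave 31.7%, 50.4%, 9.34% and 8.50%. With 1 library on a side the difference has no replicate check.

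Over all libraries, JH4 of D junctions differed by -20.5 points between WT BM and Primary, a value that rests on Primary replicate 1. Without that library WT BM was higher by 8.27 points. Likewise JH2 differed by -47.8 points between treated and untreated single-Igh libraries when all were used and by 3.92 points on those with 4 JH genes. None of the 40 comparisons of JH shares between groups passed an adjusted p of 0.05, and with 3 libraries against 3 the exact permutation test cannot go below 0.1. With 3 against 4 it cannot go below 0.0571, so no comparison could reach an unadjusted p of 0.05 either.

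Whether a VH junction carried another JH gene than a D junction of the same library was compared next, since both kinds come from the same bait sites. JH1 was lower among VH than among D junctions in all 18 libraries with 4 JH genes and in 22 of all 25. It was higher in 0 libraries. The others held no JH1 bait or JH1 bait alone, so their difference was fixed at 0, and it enters the group means. Averaged over the 8 groups the difference was -5.63 points ± 2.68 (SD, n = 8), below 0 in 8 of 8 groups (exact two-sided sign-flip permutation p = 0.00781, the smallest possible, adjusted 0.0312 over 12 tests). Here and below this test takes the 8 group means as independent. Both Wapl-degron groups are the same line and the single-Igh groups derive from it, so its p-values may be too small. JH4 was higher among VH junctions by 2.24 points ± 2.25, above 0 in 7 of 8 groups and 20 of 25 libraries (exact permutation p = 0.0156, adjusted 0.0375). The JH4 difference was below 0 in 3 libraries. The JH4 call was lost on leaving out 1 library, with adjusted p by the exact permutation test of 0.075 without INV BM replicate 3 or Primary replicate 3, 0.0938 without Primary replicate 2 and 0.0563 without single-Igh untreated replicate 3. JH2 differed by 2.97 points (exact permutation, adjusted p = 0.109) and JH3 by 0.42 points (adjusted p = 0.434), and neither passed. In the libraries with all 4 JH genes alone, the differences over the 8 groups were -6.49 points ± 4.11 for JH1 and 2.11 ± 1.72 for JH4. Those of JH2 and JH3 were 3.93 ± 4.37 and 0.45 ± 0.66 there.

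Both calls depended on how junctions were counted. In the libraries with all 4 JH genes, counting each distinct joint once gave a JH1 difference of -0.70 points over the 8 groups, which did not pass (exact permutation, adjusted p = 0.349), with 12 of 18 libraries below 0. Counting each distinct pair of positions once gave -0.30 (adjusted p = 0.45 by the same exact test), with 11 of 18 below 0. With the 7 incomplete libraries added the same countings gave 1.26 and 2.38 points. JH4 turned to -1.46 points over distinct joints (exact permutation, adjusted p = 0.161) and -3.18 over distinct positions (adjusted p = 0.0469) in the libraries with all 4 JH genes. JH2, which did not pass by lines, was higher by 5.25 points over distinct joints there, and JH3 lower by -3.09 (exact permutation, adjusted p = 0.0187 each). The mean number of lines per distinct D joint of a library had a median over 18 libraries of 20.1 with JH1. It was 13.8 with JH2, 8.81 with JH3 and 9.10 with JH4. For distinct VH joints the same medians were 2.83, 2.31, 1.95 and 2.50 lines. Where the repeated lines come from was not tested. How far the larger number of lines per D joint shapes the differences over distinct joints or positions was not tested either.

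By group, the JH1 difference by lines was -2.96 points ± 0.82 (n = 3) in WT BM and -5.71 ± 0.55 (n = 4) in INV BM. In the libraries with 4 JH genes it was -9.24 (n = 2) in Primary, -8.60 (n = 2) in the untreated Wapl-degron line and -1.36 ± 0.22 (n = 3) in that line with IAA/Dox. In the single-Igh line it was -9.42 (n = 2) untreated and -1.996 (n = 1) with IAA/Dox, and it was -12.6 (n = 1) in the INV group of that line. Over distinct joints it was -2.42 ± 0.37 in INV BM, -1.79 in Primary, -1.83 in the untreated Wapl-degron line and -3.18 in the untreated single-Igh line, below 0 in each of their libraries. WT BM gave 0.60 with 2 of 3 libraries above 0, and the Wapl-degron line with IAA/Dox gave 1.92 ± 0.53 with 3 of 3 above. Over distinct positions it was -1.13 ± 0.81 in INV BM, below 0 in 4 of 4, and 1.42 in WT BM, above 0 in 3 of 3. Under that counting it was -0.51 in Primary and 0.0423 in the untreated Wapl-degron line, each with 1 of 2 libraries above 0. It was -1.83 in the untreated single-Igh line, below 0 in 2 of 2. The difference between INV BM and WT BM was -2.75 points (exact permutation p = 0.0571), and between treated and untreated Wapl-degron libraries it was 7.23 points over all of them (exact permutation p = 0.1, the smallest possible). Over distinct positions the treated Wapl-degron libraries gave 0.0363 ± 0.843 (n = 3, 2 above 0), against the 0.0423 of the untreated ones with 4 JH genes. By lines both differences had an adjusted p of 0.152.

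**Figure D2:**
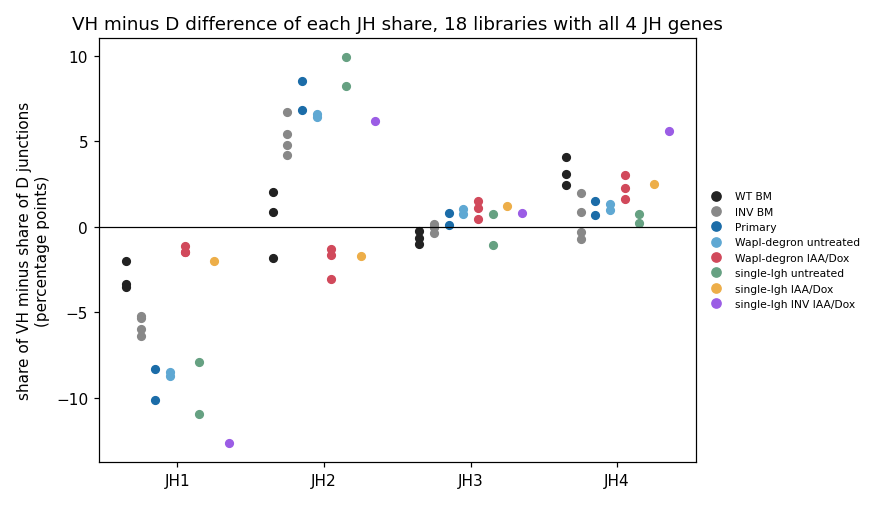
Points are libraries and show, for each JH gene and group, the share among VH junctions minus the share among D junctions, in percentage points, counted by lines. JH1 lies below 0 in all 18 libraries with 4 JH genes, by 1.10 to 12.6 points, and JH4 lies above 0 in 16 of them.

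Ratios of one JH gene to another do not depend on the rest of the pool, so all 6 pairs were also compared, in libraries with at least 10 junctions of each kind. The ratio of JH1 to JH4 was lower among VH than among D junctions in 22 of 22 libraries, by -0.81 on the log2 scale, a factor of 0.569 (exact permutation over 8 groups, adjusted p = 0.0156). JH1 to JH3 was lower in 19 of 19 libraries (-0.48, a factor of 0.715, adjusted p = 0.0156 by the same exact test). JH3 to JH4 was lower in 16 of 19 (-0.34, exact test, adjusted p = 0.0156). JH2 to JH4 was lower in 14 of 22 and did not pass (-0.36, exact test, adjusted p = 0.178). Nor did JH2 to JH3, lower in 5 of 18 (0.0506, exact test, adjusted p = 0.359). JH1 to JH2 was lower in 18 of 21 libraries and did not pass (exact test, adjusted p = 0.117). Of the 18 libraries with all 4 JH genes it was lower in 17, at -0.54 on the log2 scale and below 0 in 8 of 8 groups (exact permutation, adjusted p = 0.0117). In these libraries JH1 to JH4 was at -0.83, JH1 to JH3 at -0.49 and JH3 to JH4 at -0.34, with the same adjusted p by the exact test. Over distinct joints the JH1 to JH4 ratio turned to 0.20, lower in 8 of 22 libraries, and JH1 to JH3 to 0.18, lower in 7 of 19, neither passing. JH3 to JH4 was at 0.0216, lower in 8 of 19, and also no longer passed (exact permutation, adjusted p = 0.966). JH2 to JH3 was higher among VH joints in 18 of 18 libraries (0.39, exact permutation, adjusted p = 0.0469). Over distinct joints of the libraries with all 4 JH genes, JH1 to JH2 was at -0.22 and did not pass either (exact permutation, adjusted p = 0.0781). JH2 to JH4 turned to 0.42 there, also without passing (exact permutation, adjusted p = 0.0703).

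JH choice differed between D segments within the same library. Ighd1-1, the D segment farthest from JH1 among those shown, was set against Ighd4-1, the nearest. The D region was taken to start at the coding end of Ighd4-1, so Ighd4-1 junctions placed past that end were not counted. For Ighd1-1 such junctions were counted. Whether this bears on the JH shares and joints given for Ighd4-1 was not tested. JH2 was lower with Ighd1-1 by -14.4 points ± 4.76 (SD, n = 8 groups, exact permutation, adjusted p = 0.0312), in 18 of 18 libraries with 4 JH genes. JH4 was higher with Ighd1-1 by 4.67 points ± 2.51 in 8 of 8 groups (exact permutation, adjusted p = 0.0312), again in 18 of 18. JH1 was higher by 9.86 points ± 7.75 in 7 of 8 groups (exact permutation, adjusted p = 0.0375), with the single-Igh line given IAA/Dox at -4.08. It was higher in 18 of 18 libraries with 4 JH genes and lower in 2 of all 25, both of that group. The call was lost without single-Igh untreated replicate 2 (9.62 points, adjusted 0.0563) or single-Igh IAA/Dox replicate 2 (8.75 points, adjusted 0.125). JH3 differed by -0.109 points (exact permutation, adjusted p = 0.852). In the libraries with all 4 JH genes alone, the differences were 13.8 points ± 3.92 for JH1 and -18.9 ± 2.37 for JH2. Those of JH3 and JH4 were 0.73 ± 3.05 and 4.35 ± 1.93 there.

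The JH2 and JH4 differences also passed when distinct joints were counted once, at -9.95 and 6.14 points (exact permutation, adjusted p = 0.0312 each). JH1 then differed by 2.81 points and did not pass (exact permutation, adjusted p = 0.281), but it passed at 5.11 points when the libraries lacking a JH gene were left out (exact permutation, adjusted p = 0.0187).

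Over the 18 libraries with 4 JH genes, Ighd1-1 had a median of 30.0% JH1 (20.8% to 46.0%), 47.6% JH2, 12.6% JH3 and 8.57% JH4. Ighd4-1 had 17.8% JH1, 67.8% JH2 (55.9% to 74.8%), 11.1% JH3 and 1.88% JH4. The JH4 share of Ighd4-1 ran from 9.0% to 18.1% in BM and did not exceed 2.43% in the lines, so it was rarer in every such line library than in any BM library. Ighd3-2 had 5.36% JH1 (1.37% to 9.22%), 66.1% JH2, 19.1% JH3 and 9.96% JH4, and Ighd6-1 had 10.0% JH1 (3.65% to 17.5%) and 67.4% JH2. The 3 Ighd2 segments lay between, with 22.7% JH1 for Ighd2-3, 20.2% for Ighd2-4 and 26.6% for Ighd2-8.

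JH1 was higher with Ighd1-1 than with Ighd3-2 in 18 of 18 libraries (median difference 25.7 points), than with Ighd6-1 in 18 of 18 (21.2 points) and than with Ighd2-3 in 18 of 18 (7.25 points). Ighd2-4 gave the same in 18 of 18 (9.23 points) and Ighd2-8 in 17 of 18. JH4 ran the other way, lower with Ighd1-1 than with each of the 3 Ighd2 segments in 18 of 18 libraries. These pairs beyond Ighd1-1 and Ighd4-1 are given as counts with no test. Ighd3-2 and Ighd6-1, chosen after their values were seen, were rare. At the median over the 18 libraries they held 0.178% and 0.110% of the D junctions of JH1, and 0.777% and 0.348% of those of JH2.

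**Figure D3:**
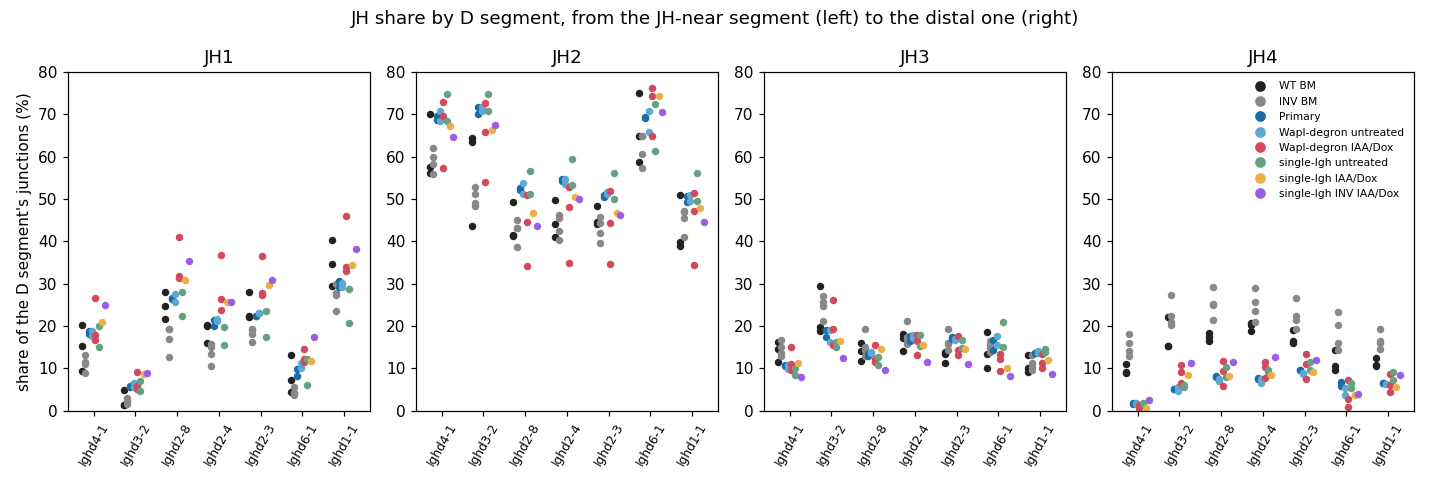
Share of JH1 to JH4, in percent, among junctions of each named D segment in the libraries with all 4 JH genes, with points for libraries. JH1 is highest with Ighd1-1 (median 30.0%) and lowest with Ighd3-2 (5.36%), and JH2 is above 60% at the median with Ighd4-1, Ighd3-2 and Ighd6-1.

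Read from the JH side, Ighd1-1 made up more of the D joints of JH1 than of the other JH genes in BM. In WT BM it was 61.0% ± 2.19 of the D junctions of JH1, 42.1% ± 1.56 of JH2, 36.4% ± 2.00 of JH3 and 35.2% ± 0.39 of JH4 (SD, n = 3). INV BM gave 61.1% ± 3.46, 43.5% ± 3.41, 34.5% ± 1.92 and 36.5% ± 1.55 (n = 4). In the untreated Wapl-degron line the values were 82.7%, 72.1%, 77.3% and 82.0% (n = 2). With IAA/Dox they were 34.9% ± 0.96, 18.2% ± 0.10, 22.9% ± 0.24 and 41.8% ± 0.44 (n = 3), lower for each JH gene.

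D junctions with the prey on the minus strand in the files were rare for each JH gene. Their median over libraries was 0.112% for JH1, 0.093% for JH2 and 0.117% for both JH3 and JH4, within 0.014% to 0.378%. Groups differed, and the Wapl-degron line was higher with IAA/Dox than untreated for each JH gene. For JH1 it had 0.229% to 0.313% (n = 3) against 0.097% to 0.108% (n = 2), which was not tested.

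Among VH genes, Ighv5-2, the most proximal of the much used VH genes, had a median of 15.4% JH1 (9.75% to 33.5%), 57.1% JH2, 14.4% JH3 and 12% JH4 over 18 libraries. Ighv2-2 had 18.3% JH1 over the 11 libraries with at least 100 of its junctions, and Ighv5-4 had 19.4% over 9. The distal gene Ighv1-81 had 20.4% JH1 and 46.2% JH2 over 7 libraries, and Ighv1-26 had 23.5% and 49.4% over 5. Ighv3-6 had 20.4% and 50.7% over 3. These sets of libraries differ, so the medians are given side by side only.

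JH1 was lower with Ighv5-2 than with D prey in 17 of 18 libraries (median difference -8.55 points). With Ighv5-2 left out of the VH junctions it was lower in 18 of 18 (-4.11 points). Distal minus proximal VH junctions differed for JH1 by 1.49 points (exact permutation, adjusted p = 0.402), and none of the 4 JH genes passed in this comparison by lines. In the libraries with all 4 JH genes alone the JH1 difference by lines was 2.12 points ± 3.59. Over distinct positions in libraries with all 4 JH genes, JH3 was lower with distal VH genes by -2.47 points and JH4 by -2.70 (exact permutation, adjusted p = 0.0469 and 0.0312). In inverted groups the words proximal and distal follow the uninverted mm9 order. Along 5 equal bins of the VH region, JH1 in WT BM held 22.0%, 23.6%, 24.2%, 22.9% and 22.2%, a spread smaller than that between libraries.

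A VH junction can still carry bases of the D segment between its ends, and these were searched for stretches of 8 bases that occur in 1 D family alone. Only VH junctions on the plus prey strand with at least 8 bases between their ends entered, and the shares are of these. In WT BM 34.9% ± 2.36 of them held an Ighd1 stretch, 31.2% ± 0.731 an Ighd2 stretch and 25.4% ± 2.35 none (SD, n = 3). In INV BM 21.7% ± 0.428 held Ighd1 and 43.0% ± 0.682 held Ighd2 (n = 4). In the 2 Primary libraries the values were 63.4% and 24.1%. Stretches in which the D segment was trimmed short are missed, and their share by JH gene is not known.

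The JH1 pattern seen with D prey recurred in these VH junctions. JH1 was higher in VH junctions with Ighd1 than with Ighd2 in 18 of 18 libraries (median difference 11.2 points) and JH3 was lower in 18 of 18 (-6.78 points). JH2 and JH4 were each lower with Ighd1 than with Ighd2 in 15 of 18 libraries and higher in 3. Against Ighd4 stretches JH1 was higher with Ighd1 in 12 of 12 libraries (13.4 points) and JH2 lower in 12 of 12 (-16.3 points). Against Ighd3 stretches JH1 was higher in 7 of 7 (20.2 points). In WT BM JH1 held 31.8% ± 3.52 of VH junctions with Ighd1, 19.4% ± 2.84 of those with Ighd2, 14.4% ± 4.46 with Ighd4 and 3.54% ± 3.69 with Ighd3 (SD, n = 3).

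In INV BM JH1 held 21.3% ± 0.46 with Ighd1, 13.2% ± 2.54 with Ighd2 and 2.53% ± 1.97 with Ighd3 (n = 4). JH1 was thus lower in INV BM than in WT BM within the Ighd1 and the Ighd2 classes, with no overlap of libraries in either. No test was run on these classes.

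**Figure D4:**
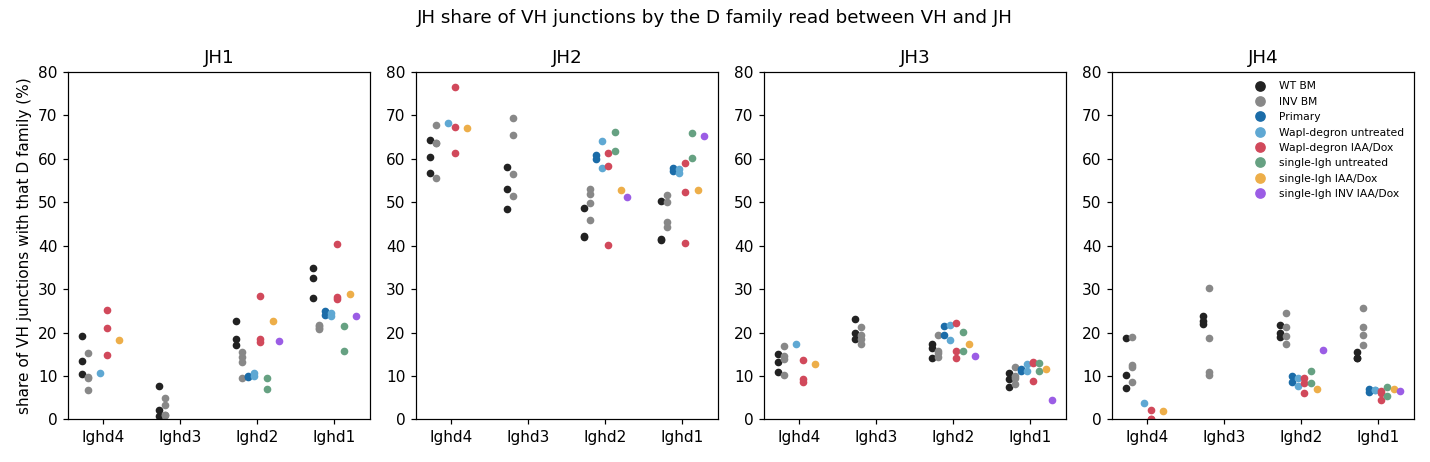
Share of each JH gene, in percent, among VH junctions sorted by the D family whose bases lie in the junction, by library with all 4 JH genes. JH1 is higher with Ighd1 than with Ighd2 in 18 of 18 libraries, and in BM lowest with Ighd3, at 3.54% in WT BM and 2.53% in INV BM.

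The joints themselves differed between JH genes and between BM and lines. A stretch of 3 or more coding bases that could have come from either segment was found in 34.4% ± 6.86 of D joints of JH1 in the lines (SD, n = 11), in 15.1% of JH2, 2.78% of JH3 and 27.6% of JH4. In BM the same was found in 6.57% ± 1.11 of JH1 joints (n = 7), 2.98% of JH2, 0.548% of JH3 and 3.07% of JH4. Aligned bases past a coding end, in the heptamer, were not counted as shared. JH3, whose coding end reads cctgg, was lowest in both. Bases of neither segment were present in 79.9% to 89.0% of BM joints by JH gene, and in the lines in 16.9% with JH1, 29.2% with JH2, 27.1% with JH3 and 28.4% with JH4.

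VH junctions held bases between the VH and JH ends in 96.5% to 99.6% for each JH gene, with a median of 17 or 18 bases in BM and 12 or 13 in the lines. The median loss from the JH end of D joints in BM was 3 bases with JH1, 5 with JH2, 3 with JH3 and 4 with JH4. In the lines it was 1, 4, 3 and 3. In the untreated Wapl-degron line 36.7% of JH1 joints held 3 or more shared bases in both libraries, and with IAA/Dox 25.4% ± 0.739 did (n = 3), while the share of Ighd1-1 among JH1 joints was lower alongside, as given above, and its part in this was not tested.

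**Figure D5:**
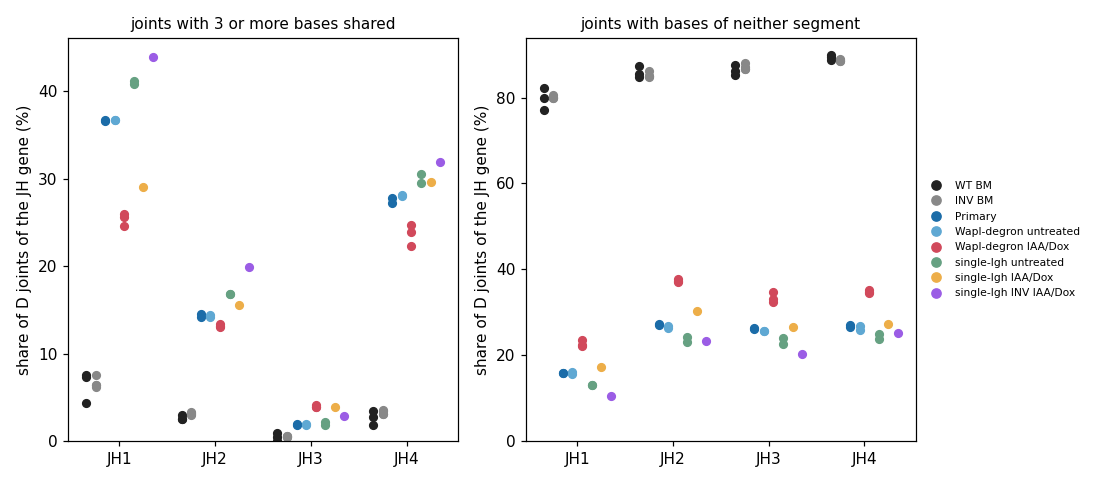
Percent of D joints of each JH gene that share 3 or more coding bases, and that hold bases of neither segment, for BM (7 libraries) and v-Abl lines (11 libraries) with all 4 JH genes, with a point for each library. At the mean over libraries JH1 has the largest share of overlapped joints in both, 6.57% in BM and 34.4% in lines, and JH3 the smallest, 0.548% and 2.78%.

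The most common joint of each pair is shown because in the lines single sequences made up a large part of the joints of some pairs. Capitals mark coding bases that both segments hold. Up to 12 bases from each side are printed around the joint, D first, read from mm9. Ighd4-1 spans 11 bases, so the g that opens its joints, or gtg with JH3, lies outside the segment:
Ighd1-1 to JH1, lines and BM: ggtagtagCTACtggtact
Ighd1-1 to JH2, lines: ggtagtagctACtactttgact
Ighd1-1 to JH2, BM: ggtagtagCTACtttgacta
Ighd1-1 to JH3, lines: tacggtagtagCctggtttgct
Ighd1-1 to JH4, lines and BM: ggtagtagcTACtatgctatg
Ighd4-1 to JH1, lines and BM: gctaactgggACtggtacttcg
Ighd4-1 to JH2, lines and BM: gctaactgggACtactttgac
Ighd4-1 to JH3, lines and BM: gtgctaactgggcctggtttgct
Ighd4-1 to JH4, lines and BM: gctaactgggACtatgctatgg

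The Ighd4-1 to JH3 joint holds no shared coding base. The first of these made up 40.2% ± 3.22 of all Ighd1-1 to JH1 joints in the lines (37.2% to 46.8%, n = 11) and 6.85% ± 0.964 in BM (4.88% to 7.84%, n = 7). The ranges did not overlap. Its Ighd4-1 counterpart with JH1 made up 39.2% ± 2.33 in the lines and 8.91% ± 3.18 in BM. Among the joints of Ighd1-1 and Ighd4-1, none with another JH gene reached such a share. The most common joints of other D segments were not looked up. In the lines the most common ones held 12.9% ± 1.36 with JH2, 10.2% with JH3 and 13.9% with JH4 for Ighd1-1. For Ighd4-1 they held 11.6% with JH2, 12.2% with JH3 and 11.7% with JH4. In BM the most common Ighd1-1 joints of JH2, JH3 and JH4 held 1.34%, 1.18% and 1.56%, and that of JH3 carried an added base. With the D segment held fixed in this way, the Ighd1-1 to JH1 joint was 37.2% (n = 2) in the untreated Wapl-degron line and 40.7% ± 1.32 (n = 3) with IAA/Dox.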

How the data were processed

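Per the submitters' processing notes, reads were aligned with Bowtie2 to mm9; the caller is not given in the sources used here. The authors deposited 1 junction list per library, whose values are other than counts: 1 line per junction with the bait and prey positions, strand and read bases, per the file headers. Lines were counted here. Depth was 61194 to 1016401 junctions, and 0 columns belonged to other samples. The JH genes and the lists of D and VH genes were chosen with earlier results of these data known. Named D and VH genes were those with the most junctions over all libraries, except Ighd3-2 and Ighd6-1, chosen after their values were seen.

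D prey were those from the first to the last annotated D segment, and VH prey those from the first to the last VH gene. The D region thus starts at the coding end of Ighd4-1, and Ighd4-1 junctions placed past that end were left out. Signals were found beside annotated ends in the mm9 genome. Groups were compared with exact two-sided permutation tests over libraries, and differences within libraries with an exact sign-flip over 8 group means, adjusted by Benjamini-Hochberg over 40 and 12 tests. Pair ratios, distinct joints, libraries with all 4 JH genes, both of these together (pair ratios included), and shared bases limited to coding ends were added after seeing the data. Alternatives counted distinct junctions, joints or read names once, narrowed the windows to 20 bp, kept 1 prey strand, libraries with all 4 JH genes or single sequencing runs, added a replicate block and left out each library. The tests were tested on simulated data. Python 3.11.15, numpy 2.4.6, scipy 1.17.1 and pandas 2.3.3 were used.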

Additional observations from a re-analysis of the deposited data

Results flagged for a closer look

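In 4 comparisons every library of one group moved one way and every library of the other the opposite way, among libraries with all 4 JH genes. Each had at least 2 such libraries on either side. The first was tested over all libraries and the others were not tested. The pool was the 12 within-library differences in each of 5 group comparisons. Comparisons with 1 such library on a side, as in the single-Igh line, are not listed. With so few libraries a group, such splits can come about by chance.

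The JH2 share of VH minus D junctions was -1.99 points in the Wapl-degron line with IAA/Dox (n = 3, -3.06 to -1.29) and 6.53 without it (n = 2, 6.44 to 6.63), a difference of -8.52. Over all libraries the difference was -6.35 (exact permutation p = 0.1, the smallest possible, adjusted 0.152). Over distinct joints both were above 0, at 4.53 and 6.59. Over distinct positions the order turned, at 12.2 with IAA/Dox (10.9 to 13.7) and 6.53 without it (6.44 to 6.61). The JH3 share of VH minus D junctions was -0.63 in WT BM (n = 3) and 0.47 in Primary (n = 2), a difference of -1.11, and over distinct joints it was -2.99 and -2.49. The JH3 share of Ighd1-1 minus Ighd4-1 junctions was -3.32 in WT BM (-4.66 to -2.27) and 2.97 in Primary (2.88 to 3.06), a difference of -6.29. The JH4 share of distal minus proximal VH junctions was 2.47 in INV BM (n = 4, 0.0226 to 4.73) and -1.26 in WT BM (-2.58 to -0.153), a difference of 3.74.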

How the results depend on the processing

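Values are differences in percentage points, and the cause was not tested where a value turned. The bait window of 20 bp, read names counted once and 1 prey strand changed no direction or call. Prey within 20 bp of a gene was run on the 40 comparisons between groups only and changed none there. Counting distinct junctions once gave for INV BM minus WT BM JH3 D -0.99 and JH3 VH -1.26. It gave for WT BM minus Primary JH2 VH -3.65. It gave for single-Igh INV minus single-Igh JH1 D 13.6 and JH3 VH 0.41. It gave for VH minus D JH1 2.38, JH3 -3.61 and JH4 -2.28. It gave for Ighd1-1 minus Ighd4-1 JH1 2.12 and JH3 0.15. It gave for distal minus proximal VH JH2 3.09. Keeping the 6 v-Abl groups gave for VH minus D JH1 -6.06 and JH4 2.37. It gave for Ighd1-1 minus Ighd4-1 JH1 7.17, JH2 -13.9, JH3 0.97 and JH4 5.76. Keeping sequencing run 3 gave for INV BM minus WT BM JH2 D 3.03, JH3 D -0.95 and JH3 VH -0.0684. Keeping sequencing run 8 gave for INV BM minus WT BM JH2 VH -0.48. Keeping sequencing run 6 gave for Wapl-degron with minus without IAA/Dox JH1 VH 2.20. Keeping sequencing run 5 gave for single-Igh INV minus single-Igh JH3 D 4.25 and JH3 VH 4.92. Counting distinct joints once gave for INV BM minus WT BM JH2 D 0.79 and JH3 D -1.73. It gave for WT BM minus Primary JH2 D -0.53 and JH2 VH -4.11. It gave for single-Igh INV minus single-Igh JH1 D 7.06. It gave for VH minus D JH1 1.26, JH3 -2.53 and JH4 -0.97. It gave for Ighd1-1 minus Ighd4-1 JH1 2.81 and JH3 0.99. It gave for distal minus proximal VH JH2 0.0146. Counting distinct joints once in libraries with all 4 JH genes gave for VH minus D JH1 -0.70, JH2 5.25, JH3 -3.09 and JH4 -1.46. It gave for Ighd1-1 minus Ighd4-1 JH3 1.50 and for distal minus proximal VH JH2 0.31. Counting distinct junctions once there gave for VH minus D JH1 -0.30, JH2 7.37, JH3 -3.89 and JH4 -3.18, and for distal minus proximal VH JH2 5.03, JH3 -2.47 and JH4 -2.70. Keeping libraries with all 4 JH genes gave for WT BM minus Primary JH1 D -1.47, JH2 D -6.68, JH3 D -0.13, JH4 D 8.27, JH2 VH -14.0, JH3 VH -1.23 and JH4 VH 10.4. It gave for Wapl-degron with minus without IAA/Dox JH1 VH 5.88 and JH2 VH -3.58. It gave for single-Igh with minus without IAA/Dox JH2 D 3.92, JH4 D -4.44 and JH4 VH -2.43. It gave for single-Igh INV minus single-Igh JH1 D 6.33, JH2 D -8.69, JH4 D 5.09, JH2 VH -0.77 and JH4 VH 8.17. It gave for Ighd1-1 minus Ighd4-1 JH3 0.73. Leaving out 1 library at a time gave these ranges where a direction or call changed. For INV BM minus WT BM it gave JH2 D -2.21 to 3.02 and JH3 D -0.0719 to 1.76. For WT BM minus Primary it gave JH1 D -1.47 to 12.5, JH2 D -6.68 to 16.3, JH3 D -0.13 to 6.64, JH4 D -34.8 to 8.27, JH2 VH -14.0 to 11.1, JH3 VH -1.23 to 5.92 and JH4 VH -30.8 to 10.4. For VH minus D it gave JH4 2.10 to 2.50. For Ighd1-1 minus Ighd4-1 it gave JH1 8.75 to 10.6 and JH3 -0.36 to 0.35. For distal minus proximal VH it gave JH2 -1.41 to 0.0751 and JH3 -0.76 to 0.0156. For Wapl-degron with minus without IAA/Dox it gave JH1 VH -10.1 to 5.88 and JH2 VH -3.58 to 26.5. For single-Igh INV minus single-Igh it gave JH1 D -29.8 to 4.36, JH3 D -4.31 to 2.56, JH1 VH -39.3 to 1.13 and JH3 VH -4.42 to 3.30. The replicate block changed no call (JH1 of D junctions, INV BM minus WT BM, -6.47 with it). Deviations of same-numbered libraries had correlations of both signs, from -0.998 to 0.938. With so few libraries, some lacking a JH gene, this does not settle whether numbers pair them. With 6 groups the exact permutation p cannot go below 0.0312. VH junctions per library went down to 144.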

Other observations

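The D segments whose share of D junctions followed a JH gene's share most closely over all 25 libraries were Ighd2-3 for JH1 (Pearson r = 0.42), Ighd6-2 for JH2 (0.34), Ighd3-2 for JH3 (0.25) and Ighd1-1 for JH4 (0.32). Of these, 7 lacked a JH gene. Over the 18 libraries with all 4 JH genes other segments came first, Ighd4-1 for JH1 (0.22) and JH2 (0.63), Ighd1-1 for JH3 (0.37) and Ighd2-4 for JH4 (0.94). BM and line libraries form separate clusters there, and within them r of JH4 and Ighd2-4 was 0.84 over 7 BM and 0.39 over 11 line libraries. Shares are parts of 1 total per library, so these values describe and are not tested.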
